A study of Homo sapiens with 12 samples.

Results

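The MYC locus was followed through its open chromatin, from MYC to the cluster of blood enhancers about 1.7 Mb downstream, in KO-52 cells that expressed either form of C/EBPα. The window lay on chromosome 8 (hg38) and ran from 135.4 kb upstream of the MYC start to 2264.6 kb downstream of it, a stretch of 2.4 Mb, and every ATAC-seq peak that touched it was taken. Peaks of the 6 lists that overlapped by at least 1 bp were joined into common regions, which gave 442 regions in the window of 355515 in the genome. ATAC-seq cuts DNA with the Tn5 transposase where chromatin is accessible, so a peak marks an open stretch and says nothing by itself about transcription.

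KO-52 is an acute myeloid leukaemia cell line with mutations in both copies of CEBPA. It was transduced with the full-length p42 form, with the short p30 form or with an empty vector (EV) and sorted for GFP, so every line also kept its own mutant CEBPA. The p42 and p30 constructs were fused to the ERT2 hormone-binding domain, and per the methods all lines, EV included, received 4-hydroxytamoxifen before the experiments. Cells of each line were kept in DMSO or in tunicamycin (Tm), a blocker of protein glycosylation that causes endoplasmic reticulum stress, at 2 µg/mL for 8 h. These 6 conditions held 2 replicates each, 12 libraries in all, each made from 50000 nuclei of one transduced line.

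MYC is a transcription factor that drives growth and proliferation and pairs with MAX to bind E-boxes. In blood cells its expression depends on distant enhancers beyond the long non-coding RNA gene PVT1, in and around CCDC26, which are bound by haematopoietic factors such as PU.1, RUNX1 and C/EBPα. p42 halts proliferation and is known to repress MYC, whereas p30 lacks N-terminal transactivation sequence and is the form that CEBPA-mutant leukaemias keep. The window therefore addresses whether the C/EBPα form or the stress changed which elements around MYC were open.

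Each condition was deposited as 1 peak list called on its pooled replicates. No value below has a replicate spread and no test between conditions was possible, so differences between lists are those of single pooled libraries. Peaks were ranked inside their own list by −log10 p, and the rank is given as a percentile, with 100 for the strongest peak. The number of sequence tags at each summit and the local background were solved from the deposited fold enrichment and −log10 p. The lists held 187704 to 254239 peaks from an estimated 22250000 to 29980000 tags, with the EV list in DMSO the shallowest and the p42 list in DMSO the deepest and longest. Intervals printed with tags (exact Poisson) and shares (Wilson) are 95% intervals that cover counting error only. As a check of the label, all 6 myeloid genes examined (SPI1, CD33, MPO, CSF3R, ELANE and CSF1R) had a promoter peak in every list. None of the 3 erythroid genes (GATA1, KLF1, HBB) had one. The check is weak, since 15842 to 16456 of 20033 protein-coding genes had a promoter peak in each list. The ELANE peak held only 4 to 8 tags. The lymphoid genes CD79A, CD3E, CD3D and CD4 also had promoter peaks in all lists, while MS4A1 had none.

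The window was richer in peaks than the genome in every condition. It held 249 peaks in EV cells in DMSO, 263 in EV cells after Tm, 259 and 256 in p30 cells, and 333 and 279 in p42 cells. That is 104 to 139 peaks per Mb, against 60.7 to 82.2 over the genome. Peaks covered 2.31% to 3.12% of the window and 1.35% to 1.79% of the genome. The peaks themselves were of ordinary strength, with a median percentile between 46.9 and 52.9, and 44 regions (9.95%, background 9.94%) reached the top 10% of at least 1 list.

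**Figure D1:**
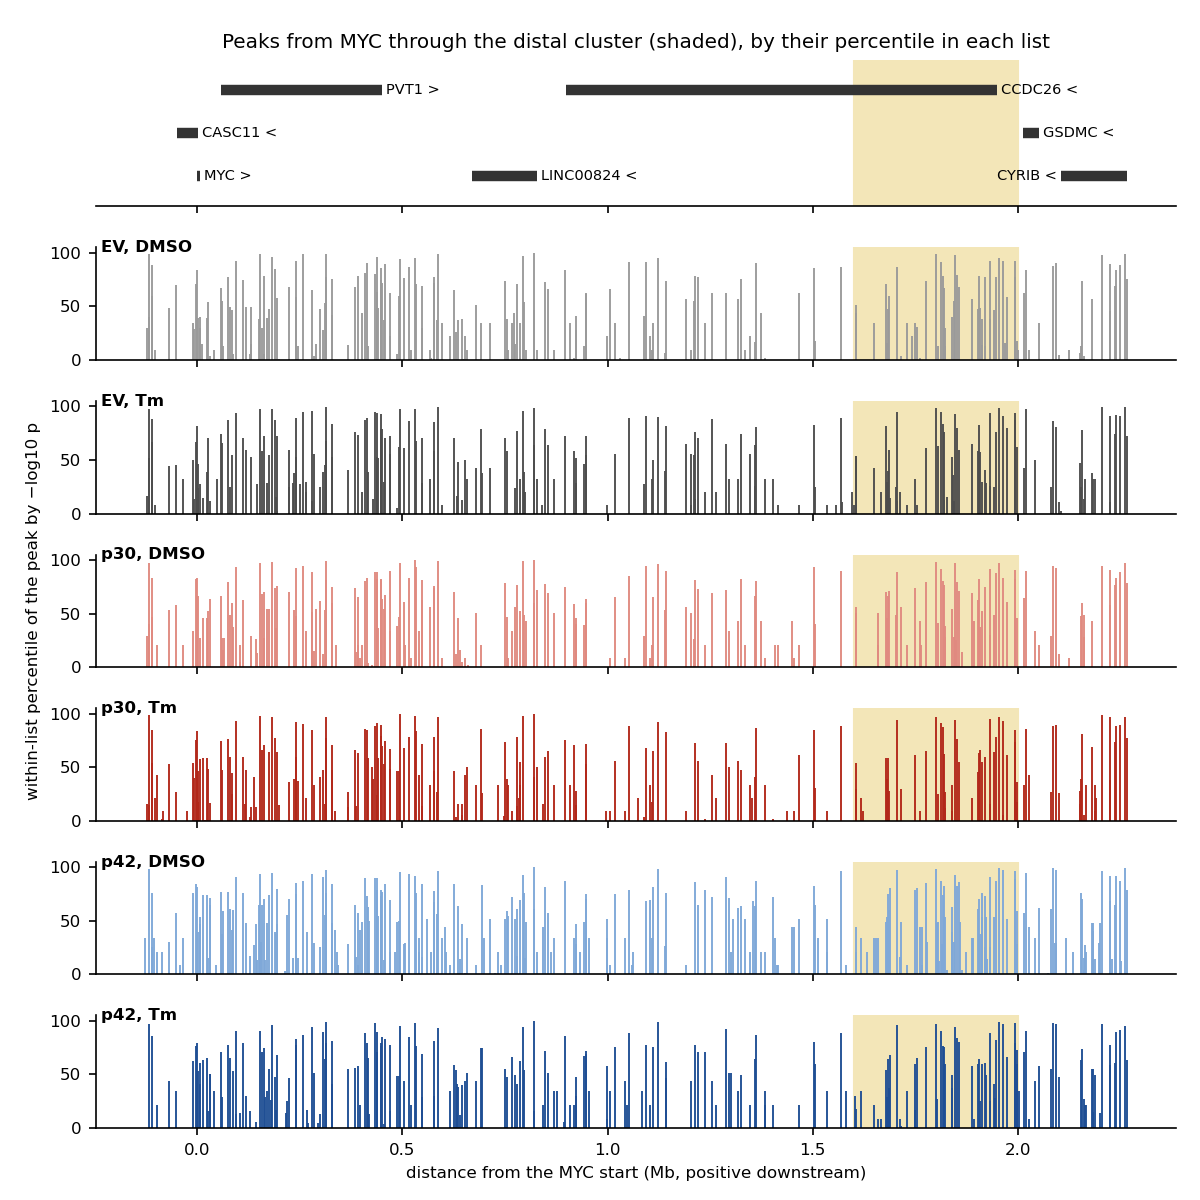
Within-list percentile by −log10 p (vertical axis) of every region with a peak, against distance from the MYC start in Mb (horizontal axis), for each of the 6 lists, with genes drawn above and the distal cluster from 1.6 to 2.0 Mb shaded. Strong peaks stand at the same places in all 6 lists, and the p42 list in DMSO carries the most short lines.

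The MYC promoter was open in all 6 conditions, with nearly the same number of tags in each. The region over the first MYC exon, chr8:127735168-127736542, centred 0.4 kb from the MYC start, had 46 summit tags in EV cells in DMSO and 48 after Tm. It had 48 and 49 tags in p30 cells, and 48 and 47 in p42 cells, in the same order of treatments. The counts of the 6 lists thus lay within 3 tags of each other, well inside the interval of any one of them. Scaled to depth, the summit in DMSO held 20.7 tags per 10000000 (15.1 to 27.6) for EV, 18.1 (13.3 to 24.0) for p30 and 16.0 (11.8 to 21.2) for p42. After Tm it held 19.1 (14.1 to 25.3), 21.2 (15.7 to 28.1) and 18.5 (13.6 to 24.6) in the same order. All 6 intervals overlapped, so no difference at the MYC promoter was detectable at this depth.

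The rank of the promoter depended on what was ranked. By summit tags it stood at percentile 98.6 to 99 of its list. By −log10 p it stood at percentile 83.7 and 81.7 in EV cells, 82.9 and 83.7 in p30 cells, and 81.3 and 79.4 in p42 cells, DMSO before Tm. The gap between the 2 ranks went with a very high background around MYC, which was 13.4 to 15.8 times the lowest background of the list. The median protein-coding promoter with a peak had a background 3.66 to 3.87 times the lowest, and MYC exceeded 99.6% to 99.9% of those promoters. By tags MYC lay above 79.6% to 88.9% of them, and by −log10 p above 24.3% to 36.9%.

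That high background was local to the gene. Regions centred 9.4 kb upstream of the MYC start and 15.7 kb downstream of it, the last in 5 of the lists, had backgrounds of 1.00 to 1.42 and 1.13 to 1.52 times the lowest. The region 7.7 kb downstream, just past the end of MYC, lay in between, at 3.84 to 6.57 times. Over the whole window the median was 1.45 to 1.69 times the lowest, against 1.12 to 1.31 over all peaks.

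**Figure D2:**
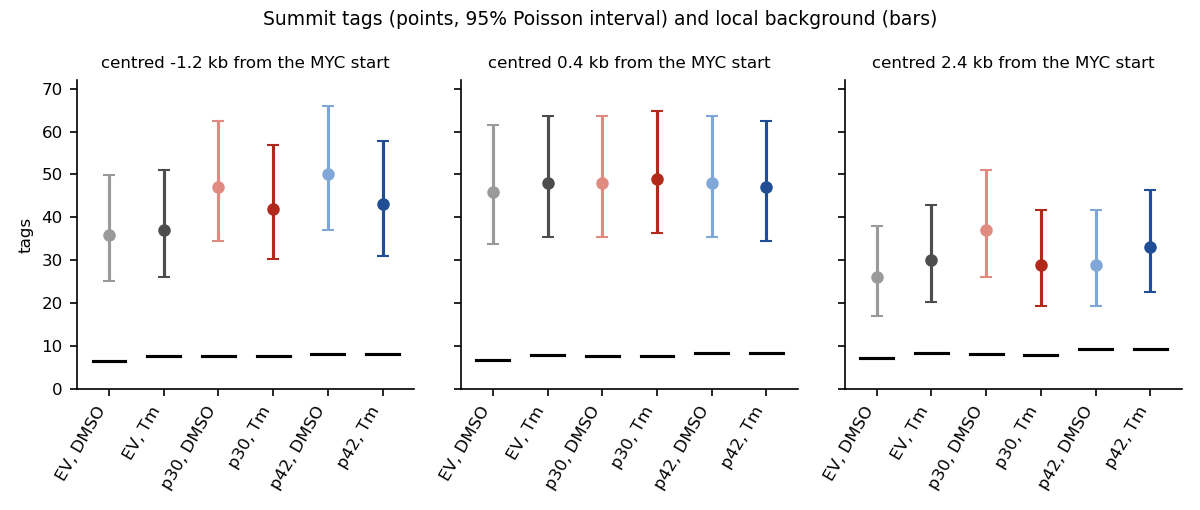
Tags at the summit (points, with exact 95% Poisson intervals) and local background in tags (black bars) of 3 regions at MYC, in the 6 lists on the horizontal axis, not scaled to depth. At the promoter, centred 0.4 kb from the start, the 6 points lie between 46 and 49 tags.

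2 neighbours of the promoter varied more in rank. The region 1.2 kb upstream, chr8:127734036-127734352, matched the CTCF motif. It lies at a start of CASC11, a long non-coding RNA on the strand opposite to MYC, whose annotation also overlaps MYC. It had 36 and 37 tags in EV cells, 47 and 42 in p30 cells and 50 and 43 in p42 cells, and moved between percentiles 67.0 and 84.3. Per 10000000 tags it held 14.7 to 18.2, with the EV list after Tm lowest and the p30 list after Tm highest. The region 2.4 kb downstream, chr8:127737664-127737958, lies inside MYC near another annotated MYC start and ranked highest in p30 cells in DMSO, at percentile 66.4 with 37 tags. The other 5 lists gave it percentiles 38.8 to 53.2 with 26 to 33 tags. Another narrow peak, chr8:127738256-127738344, was called only after Tm, in EV cells at percentile 24.2 and in p30 cells at 17.4, and both ranks are low.

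Upstream of MYC the strongest region was chr8:127618290-127618922, centred -116.8 kb from the MYC start, which held the AP-1 letters TGACTCA and the GATA letters AGATAA near its summit. It ranked at percentile 97.0 to 99.2 with 36 to 45 tags in the 6 lists. All 6 lists thus placed this element in their top 10%. Of 21 upstream regions 6 were open in all lists.

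Of the 442 regions, 150 were open in all 6 lists (33.9%, interval 29.7 to 38.5, background 32.2), and 132 were found in 1 list (29.9%, background 34.3). The share open throughout was 36.6% across PVT1, 33.5% between PVT1 and 1.6 Mb and 33.0% in the distal cluster. The interval of the first share included the background, and the 3 segments differed by under 4 percentage points.

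PVT1, the long non-coding RNA gene next to MYC, held 101 regions and some of the most open chromatin of the window. Its strongest region, chr8:128048480-128049627, lay 313.6 kb downstream of the MYC start and had 51, 54, 56, 45, 50 and 50 tags in EV, p30 and p42 cells, DMSO before Tm in each line. Regions 154.9 kb and 182.3 kb downstream ranked at percentile 90.3 to 98.6 and 95 to 98.3. These 3 elements stayed in the top 10% of all 6 lists.

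In PVT1, 1 element had more tags in p42 cells with separate intervals, against p30 cells in DMSO and EV cells after Tm. Other PVT1 regions also had more tags in both p42 lists, but with overlapping intervals. An example held 9.67 and 9.04 tags per 10000000 in p42 cells against 3.98 to 5.28 in the other lists. The region chr8:128042055-128042633, 306.9 kb downstream of the MYC start in a PVT1 intron, had 28 tags in p42 cells in DMSO and 26 after Tm. It had 7 and 8 tags in EV cells and 6 and 9 in p30 cells. Both p42 lists were high, at percentile 90.5 and 89.4, and the other 4 were low, at 12.6 to 47.3. In DMSO the p42 summit held 9.34 tags per 10000000 (6.21 to 13.5) and the p30 summit 2.26 (0.83 to 4.92), a ratio of 4.13 with separate intervals. After Tm the p42 list held 10.2 (6.68 to 15.0) and the p30 list 3.90 (1.78 to 7.40), and those intervals overlapped. The EV list overlapped with p42 in DMSO, at 3.15 (1.26 to 6.48), and was separate from it after Tm, at 3.18 (1.37 to 6.27). Within 100 bp of its summit the region held TGTTGCAA, a composite of a C/EBP and an AP-1 half-site, as did 1.58% of regions in the window and 1.16% of all regions.

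It was the only one of 206 regions with a peak in both lists whose p42 interval lay above the p30 interval in DMSO. Over the genome 0.0966% of such regions did. No region lay below (background 0.141). The PVT1 region also had the largest rise in rank between these lists. Rank and tags come from the same peak values, so its intervals are no independent support. The intervals were not adjusted for the number of regions or pairs compared. After Tm no region of 185 had separate intervals in p42 and p30 cells, either higher (background 0.0565) or lower (background 0.102). Between p42 and EV cells after Tm the same PVT1 region was the only one of 185 that lay above (background 0.0881), and none lay below (background 0.0609).

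A second PVT1 element went the other way. The region chr8:127925989-127926518, 190.8 kb downstream, had 26 and 27 tags in EV cells and 20 and 22 in p30 cells, but 10 and 11 in p42 cells, DMSO before Tm. In DMSO this was 11.7 tags per 10000000 (7.63 to 17.1) for EV, 7.54 (4.6 to 11.6) for p30 and 3.34 (1.6 to 6.13) for p42. Both p42 lists ranked it lower, at percentile 39.6 and 47.9, than the other 4, at 73.5 to 86.9. It was singled out after its values were seen, as was the region chr8:128827901-128828459, 1092.7 kb downstream over a CCDC26 exon, which held the C/EBP letters. That one had 26 and 26 tags in EV cells, 29 and 14 in p30 cells and 13 and 16 in p42 cells. Between p42 and EV cells in DMSO these 2 of 202 regions lay below with separate intervals (background 0.366) and none lay above (background 0.0439). With tags left unscaled none of the 202 lay below, and with tags centred on the median ratio of all shared regions 1 did.

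**Figure D3:**
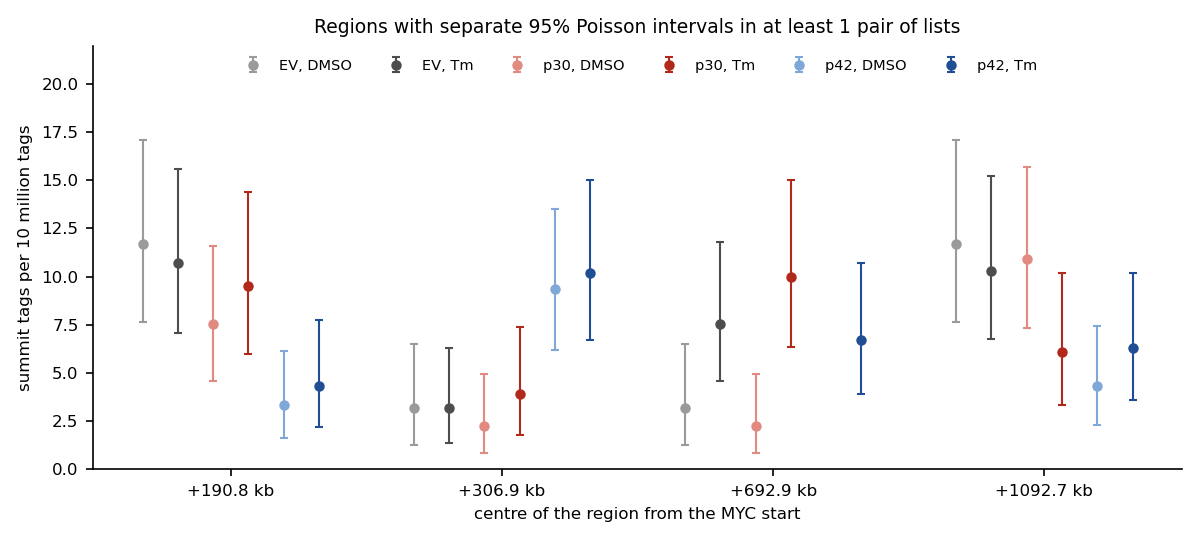
Summit tags per 10000000 estimated tags (vertical axis, points with exact 95% Poisson intervals) of the 4 regions whose intervals separated in at least 1 of 7 pairs of lists, placed by distance of their centre from the MYC start. The region at 306.9 kb is high in both p42 lists, the region at 190.8 kb is low in both, and the region at 692.9 kb is higher after Tm in EV and p30 cells, with separate intervals in p30 cells. The p42 list in DMSO has no peak at 692.9 kb and so no point there.

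Other large differences in rank between p42 and p30 cells in DMSO rested on few tags. The regions 415.9 kb and 1102.5 kb downstream rose from percentile 3.50 to 63.0, with 6 and 14 tags, and from 8.89 to 69.3, with 5 and 13 tags. The regions 829.3 kb, 547.8 kb and 1191.7 kb downstream stood at percentiles 72, 62.5 and 56.3 in p30 cells and at 21.1, 12.5 and 8.81 in p42 cells, with 10 to 14 tags against 5 or 6. None of these 5 had separate intervals. Over the 206 shared regions the median difference, p42 minus p30, was 1.39 percentile points, against 3.16 over all regions, with quartiles of -7.70 and 11.3.

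Presence and absence told of the same scale. In DMSO 114 regions were called in p42 cells and not in p30 cells (31.7%, interval 27.1 to 36.6, background 30.9), and 40 in p30 cells and not in p42 cells (11.1%, background 14.6). Against EV cells 118 were called only in p42 cells (33.1%, background 35.4) and 37 only in EV cells (10.4%, background 11.2). Between p30 and EV cells 46 were called only in p30 cells (16.1%, interval 12.3 to 20.9, background 22.5) and 39 only in EV cells (13.7%, background 13.7). The p42 list gained the most peaks here and did so across the genome too, and it was also the deepest list. Of these 6 shares the one for p30 over EV lay with its whole interval below the background. The p42 and p30 comparisons with EV share the EV list, and both DMSO comparisons of p42 share the p42 list.

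Regions called in 1 list of a pair were weak. In DMSO the regions of p42 cells that p30 cells lacked had a median percentile of 27.9 and a median width of 114 bp, while those found in both had a median percentile of 65.0 in the p42 list. With every list cut to equal length the excess of p42 shrank or was lost: 68 regions were p42-only and 54 p30-only in DMSO, and 61 were p42-only and 61 EV-only. For p30 and EV cells the order turned, with 37 p30-only and 51 EV-only. With the threshold scaled to depth the excess of p42 remained, at 96 p42-only and 44 p30-only, and 99 p42-only and 44 EV-only. That setting gave 43 p30-only and 40 EV-only. With a −log10 q of at least 10 asked of the list that held the peak, 6 were left for p42 against p30 and 0 for p30 against p42.

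The 2 p42 lists shared 14 regions that no other list had (3.17%, interval 1.9 to 5.25, background 4.58), 5 of them in PVT1 and 1 in the distal cluster. The strongest 2 lay side by side between MYC and PVT1, 31.4 kb and 31.7 kb downstream of the MYC start, at chr8:127766757-127766994 and chr8:127767094-127767212. They ranked at percentile 59.6 and 71.7 in p42 cells in DMSO, with 13 and 17 tags, and at 50.1 and 50 after Tm, with 11 tags each. The third, 218.8 kb downstream, was at percentile 55.8 and 25.3. Another 54 regions were found in the p42 list in DMSO alone (12.2%, background 13.3).

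6 regions were open in all lists but those of p42 cells (1.36%, interval 0.624 to 2.93, background 0.802). The strongest, chr8:127976702-127976866, lay at a start inside PVT1 and had 15 tags in both EV lists and 12 and 18 tags in p30 cells. The other 2 named were 131.6 kb downstream in PVT1, with 11, 11, 8 and 6 tags in EV and p30 cells, and 568.0 kb downstream, with 5, 7, 10 and 7 tags. Both p30 lists shared 2 regions that no other list had (background 0.617), both in PVT1, with 4 to 9 tags, and both EV lists shared 1 (background 0.558).

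**Figure D4:**
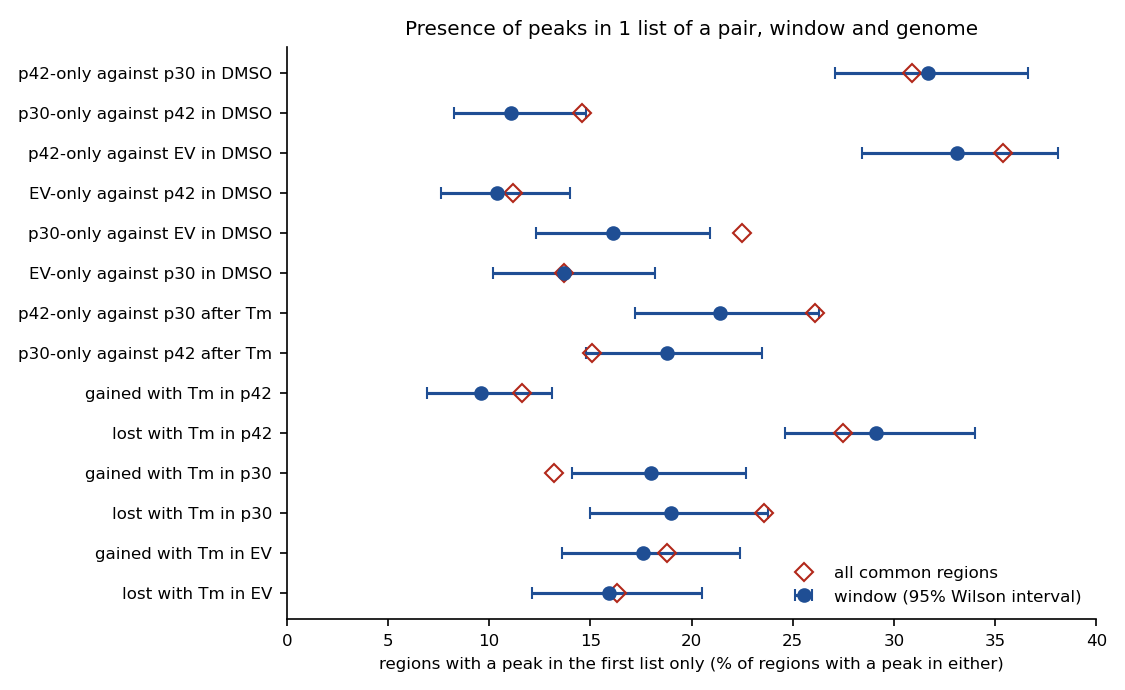
Share of regions (horizontal axis, % of regions with a peak in either list of the pair) that had a peak in the first list only, for 14 comparisons on the vertical axis. Filled points are the window with 95% Wilson intervals and open diamonds are all common regions of the genome. The diamonds fall inside the intervals except for p30-only against EV in DMSO, at 22.5, and for regions gained with Tm in p30 cells, at 13.2.

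The distal blood enhancer cluster, taken as 1.6 to 2.0 Mb downstream of the MYC start, was open in all 3 lines. It held 91 regions, of which 49 were called in EV cells in DMSO and 49 after Tm, 49 and 44 in p30 cells and 69 and 52 in p42 cells. 30 were open in all 6 lists, and peaks covered 2.57% to 3.95% of the cluster, against 2.31% to 3.12% of the window. 8 regions reached the top 10% of at least 1 list. Over the 41 regions shared by p42 and p30 cells in DMSO the median rank difference was -0.123 percentile points, with 20 higher and 21 lower in p42 cells. No region of the cluster with a peak in both lists of a pair had separate tag intervals, in any of the 7 pairs compared. Regions with a peak in 1 list of a pair have no second interval and could not be counted. In DMSO 28 of 77 regions of the cluster had a peak in p42 and not p30 cells (background 30.9%). The reverse held for 8 (background 14.6%).

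The strongest element of the cluster, chr8:129535674-129536655, lay 1800.7 kb downstream in a CCDC26 intron and held the AP-1 letters. Its summit had 41, 42, 41, 38, 45 and 39 tags in EV, p30 and p42 cells, DMSO before Tm, and it ranked at percentile 96.7 to 99. All 6 lists thus agreed on it to within 7 tags. The region with most tags in some lists, 1846.7 kb downstream, had 53 tags in EV and p30 cells in DMSO and 42 to 45 in the other 4 lists.

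Of the 8 strongest regions 4 ranked highest in a p42 list and 4 ranked lowest in one. The region 1704.8 kb downstream, which held the PU.1 letters GAGGAAGT, had 20 and 28 tags in EV cells, 23 and 27 in p30 cells and 33 and 29 in p42 cells. The region 1952.1 kb downstream had 29, 34, 34 and 32 tags in EV and p30 cells and 41 and 38 in p42 cells. The region 1961.9 kb downstream had 23, 24, 20 and 24 tags against 32 and 31, and the region 1991.0 kb downstream 28, 30, 28 and 23 against 37 in each p42 list. In each of the 4 regions both p42 lists were above the other 4 in rank, at percentiles 96.2 to 99.3 against 82.8 to 98.0. The tag intervals overlapped, and these tags were not scaled to depth. Per 10000000 tags the region 1704.8 kb downstream held 11 and 11.4 in p42 cells against 8.67 to 11.7 in the other lists. That at 1952.1 kb held 13.7 and 14.9 against 12.8 to 13.9, and that at 1991.0 kb 12.3 and 14.5 against 9.97 to 12.6. So scaled, both p42 lists were above the other 4 only at 1961.9 kb, at 10.7 and 12.2 against 7.54 to 10.4. The regions 1811.6 kb and 1930.9 kb downstream ranked lowest in p42 cells, at 87.5 in DMSO and 88.7 after Tm, against 90.4 to 95.3 in the remaining lists. So did the regions 1846.7 kb downstream, at 92.6 in DMSO against 93.3 to 97.9, and 1800.7 kb downstream, at 96.7 after Tm against 97.0 to 99.

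After Tm the MYC promoter stood slightly lower in rank in EV and p42 cells and slightly higher in p30 cells, within the values given above. In the distal cluster the median change of shared regions was 2.04 percentile points in EV cells, -9.08 in p30 cells and -4.87 in p42 cells. Across the window it was 2.13, -2.81 and -1.98, and across all regions 0.749, -1.81 and -2.94. After Tm 27 of 36 shared distal regions ranked lower and 9 higher in p30 cells, 30 lower and 14 higher in p42 cells, and 17 lower and 23 higher in EV cells. Over all shared regions 39.3% ranked higher in p30 cells, 38.9% in p42 cells and 53.2% in EV cells.

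1 element was higher after Tm with separate intervals, in p30 cells. The region chr8:128428122-128428556, 692.9 kb downstream of the MYC start, lies over an exon and a start of LINC00824, a long non-coding RNA. It had 7 tags in EV cells in DMSO and 19 after Tm. In p30 cells it had 6 tags and then 23, and in p42 cells it had no peak in DMSO and 17 tags after Tm. The 3 Tm lists were high, at percentile 74.9 to 85.8, and the EV and p30 lists in DMSO low, at 34.2 and 21.1. In p30 cells this was 2.26 tags per 10000000 (0.83 to 4.92) and 9.97 (6.32 to 15.0), a ratio of 4.41 with separate intervals, while the EV intervals, 3.15 (1.26 to 6.48) and 7.56 (4.55 to 11.8), overlapped.

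In p30 cells it was the only one of 189 shared regions that rose with separate intervals. It also had the largest rise in rank with Tm there, from the same peak values, so its intervals are no independent support. Over the genome 17 regions rose so (background 0.0117), and none of the window was lower (background 0.000689). In p42 cells, with 217 shared regions, none of the window separated in either direction (backgrounds 0.00531 higher and 0.00059 lower). In EV cells, with 193, none did either (backgrounds 0.00279 higher and 0.00279 lower). Near its summit the region held TGATGCAA, the composite element bound by ATF4 with C/EBP factors in the stress response, and TGACTCA, bound by AP-1. The first stood in 2.04% of regions in the window and 1.25% of all regions, and the second in 14.3% and 9.48%.

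The balance of gains and losses with Tm depended on list length. In p42 cells 34 regions were gained (9.60%, background 11.6) and 103 were lost (29.1%, background 27.5). In p30 cells 54 were gained (18.0%, interval 14.1 to 22.7, background 13.2) and 57 lost (19.0%, background 23.6), and in EV cells 51 were gained (17.6%, background 18.8) and 46 lost (15.9%, background 16.3). With lists of equal length 43 were gained and 56 lost in p42 cells, 64 gained and 48 lost in p30 cells and 42 gained and 53 lost in EV cells. The order of gains and losses thus turned in p30 and EV cells. With the threshold scaled to depth 39 were gained and 86 lost in p42 cells, 52 and 57 in p30 cells and 51 and 47 in EV cells, so no order turned. Most regions gained or lost in the lists as deposited were weak, with median percentiles of 13.1 to 21.3. Depth changed too, to 25440000 tags from 29980000 for p42, to 23080000 from 26530000 for p30 and to 25130000 from 22250000 for EV. 4 regions were open in the 3 DMSO lists and in no Tm list (background 0.505), and 1 in the 3 Tm lists and in no DMSO list (background 0.202). After Tm 66 regions were called in p42 and not p30 cells (21.4%, interval 17.2 to 26.3, background 26.1) and 58 in p30 and not p42 cells (18.8%, background 15.1), and with lists of equal length 49 and 64.

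Among single elements, the region 438.5 kb downstream in PVT1, which held the AP-1 letters, went from 22 tags to 8 in p30 cells with Tm. It had 14 and 12 tags in EV cells and 22 and 17 in p42 cells. In rank it fell from percentile 81.9 to 24.4 in p30 cells and stood at 53.1 to 78.4 in the other lists. Its intervals in p30 cells overlapped.

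Between PVT1 and the distal cluster the strongest region of the window, chr8:128556608-128557179, lay 821.5 kb downstream of the MYC start in an intron of LINC00824. It had 48 and 47 tags in EV cells, 51 and 61 in p30 cells and 54 and 55 in p42 cells, and ranked at percentile 98.8 to 100. It held the AP-1 letters near its summit and lies in the same gene as the element 692.9 kb downstream. It had at least 47 tags in every list.

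The motif letters searched within 100 bp of summits, on both strands, covered 9 motifs. AP-1 and GATA letters were more frequent in the window than in all regions beyond the counting interval, and the other motifs were not. The intervals were not adjusted for the 9 motifs, and all regions, promoters included, were not matched to the window. The C/EBP letters TTGCGCAA or TTGCACAA stood in 1.81% of regions (interval 0.920 to 3.53, all regions 1.58). AP-1 letters stood in 14.3% (11.3 to 17.8, all regions 9.48), GATA letters in 14.7% (11.7 to 18.3, all regions 11.3), the RUNX letters TGTGGTT in 11.8% (9.09 to 15.1, all regions 9.28) and the PU.1 letters in 7.47% (5.37 to 10.3, all regions 6.86). The E-box CACGTG, the site of MYC itself, stood in 1.81% (0.920 to 3.53, all regions 3.14) and the CTCF motif in 1.13% (0.484 to 2.62, all regions 2.06). In the distal cluster 1 of 91 regions held the C/EBP letters and 0 held the E-box, which allows a share of up to 4.05%. AP-1 and ATF4 letters can overlap with the composite letters of C/EBP factors, and a match of letters is not a bound site.

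Other genes of the window were measured at their promoters. CYRIB, a regulator of actin and RAC1 at the far end, had 48 and 58 tags in EV cells, 45 and 53 in p30 cells and 50 and 49 in p42 cells, at percentile 94.4 to 99.6. GSDMC, which encodes a pore-forming gasdermin, had 21 and 33, 26 and 23, and 32 and 27 tags in the same order, and CCDC26, the non-coding host of the distal cluster, 21 and 21, 28 and 21, and 28 and 24. Both stayed at or above percentile 76.4 in all lists.

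The partners and relatives of MYC lie outside the window and gave a second view. All 12 genes of a MYC network list had a promoter peak in all 6 lists. Such peaks were common, with 15842 to 16456 of 20033 protein-coding genes holding one in each list. Among the 12, MAX stood at percentile 91.9 to 96.8 and the MYC antagonists MXD1 at 95 to 98.2 and MXD4 at 96.1 to 99.5. MLXIPL, a glucose-responsive relative, ranked at percentile 84.8 and 84.4 in p42 cells and at 53.7 to 74.7 in EV and p30 cells, but its tags per 10000000 overlapped, at 8.34 (5.4 to 12.3) in p42 and 7.64 (4.45 to 12.2) in EV cells in DMSO. MYCN had 32 and 35 tags in EV cells, 41 and 33 in p30 cells and 43 and 39 in p42 cells, and MYCL had 15 to 22 tags. Per 10000000 tags MYCN held 14.4 in EV, 15.5 in p30 and 14.3 in p42 cells in DMSO, and 13.9, 14.3 and 15.3 after Tm.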

How the data were processed

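ATAC-seq libraries of KO-52 lines were compared by the peak lists that the authors deposited, 1 for each of 6 conditions with 2 replicates pooled. Per the labels and methods the authors used Trim Galore 0.6.6 for trimming, Bowtie2 2.4.4 for alignment on hg38, Picard against duplicates and MACS2 for peaks. ChIP-seq and ATAC-seq have one shared description in the methods, and a shift for the Tn5 cut and a mitochondrial filter were not given in the sources used here. The deposited fold enrichment is a ratio of summit tags to local background within a list. Likewise the −log10 p and q values, as deposited, are relative to the same background and are not normalized between lists. The summit is deposited as an offset in bp.

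Tags k and background b were solved from fold = (k + 1) / (b + 1) and the Poisson p-value, and 100% of peaks gave whole tags within 1e-04 of the deposited −log10 p. Depth was estimated from the lowest background, the narrowest peak width of the list (57 to 60 bp) and a genome of 2700000000 bp. The tag solution and the merging of peaks were tested on simulated data, and the depth estimate was not. Genes came from GENCODE 44, and promoters were taken within 1 kb of a transcript start. Python 3.11.15, numpy 2.4.6, scipy 1.17.1 and matplotlib 3.10.9 were used. Regions were named when they lay at MYC, ranked among the 3 highest of a segment, reached the top 10% in the distal cluster, had one of the 3 largest rank differences or were the 3 strongest of a presence pattern. Members, lists, segments and the counting of separate tag intervals were chosen with earlier results of these data known. Alternatives varied the threshold, list size, depth, overlap, merging, ranking, cluster borders and tag scaling. Sequences of the regions were not printed, and 1 marker gene is not reported here.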

Additional observations from a re-analysis of the deposited data

Results flagged for a closer look

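With the lists as deposited, the net change in open regions of the window with Tm went in opposite directions in p42 and EV cells, at -69 regions (-21.6%) in p42 cells and 5 regions (2.09%) in EV cells, while p30 cells changed by -3 regions (-1.22%). Over all common regions the net change was -18.0% in p42 cells, 3.16% in EV cells and -11.9% in p30 cells. Between DMSO and Tm the estimated depth dropped for both C/EBPα forms and increased for EV, and its part in the result was not tested. Each condition is 1 pooled list, so the difference between the lines was not tested. In the distal cluster the net change was -17 regions in p42 cells, -5 in p30 cells and 0 in EV cells. With lists of equal length the opposition was lost, at -13 regions in p42 cells and -11 in EV cells, and p30 cells turned to 16. With the threshold scaled to depth the opposition remained, at -47 regions in p42 cells and 4 in EV cells, with -5 in p30 cells.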

How the results depend on the processing

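No paired analysis was possible because each list pools its replicates, and for the same reason no replicate could be left out. Of 133 alternatives 80 left a count or balance within 1.5 times its value or a percentile within its interval, 47 moved it and 6 reversed the direction of a balance, the first count of a pair minus the second. Asking for a −log10 q of at least 10 left 62 regions open in all 6 lists and 13 in the distal cluster. It left 6 for p42-only against p30 in DMSO, 7 for p42-only against EV, 3 for p42-only against p30 after Tm, 1 each for gains and losses with Tm in p42 and losses in EV, and 0 for the other 8 comparisons. With all lists cut to equal length p42-only against p30 was 68, p42-only against EV 61, EV-only against p42 61 and losses with Tm in p42 56. The balances, chosen after seeing the data, then reversed from 7 to -14 for p30 against EV in DMSO, from 8 to -15 for p42 against p30 after Tm, from -3 to 16 for Tm in p30 and from 5 to -11 for Tm in EV. They shrank from 74 to 14 for p42 against p30 in DMSO, from 81 to 0 for p42 against EV and from -69 to -13 for Tm in p42. At a −log10 q of 10 these 7 balances were 6 for p42 against p30 in DMSO, 7 for p42 against EV, 0 for p30 against EV, 3 for p42 against p30 after Tm, and 0, 0 and -1 for Tm in p42, p30 and EV. Scaling the threshold to depth gave 52 for p42 against p30 in DMSO, 55 for p42 against EV and 10 for p42 against p30 after Tm. It gave 3 for p30 against EV, and -47, -5 and 4 for Tm in p42, p30 and EV. Merging peaks within 100 bp gave 4 for p30 against EV, -1 for Tm in p30 and 5 for p42 against p30 after Tm. Counting a peak only where it covered 50% of its region, chosen after seeing the data because the planned 50% overlap is met by every peak, left 65 regions in all lists, 15 of them distal, and 57 EV-only against p42, with balances of 14 for p30 against EV, -12 for Tm in p30 and -4 for Tm in EV. Borders of 1.7 and 1.9 Mb gave 12 distal regions open in all lists and 4 in the top 10%, and borders of 1.5 and 2.1 Mb 13 in the top 10%. The lowest percentile of the MYC promoter was 34.0 by fold enrichment, 98.6 by tags and 80.6 within chromosome 8, beside 79.4. The 2 regions lower in p42 than EV cells became 0 with unscaled tags and 1 with tags centred on the median ratio, both chosen after seeing the data, and the counts of p42 against p30 in DMSO, p42 against EV after Tm and Tm in p30 stayed at 1. The cause of these moves was not tested. Depth limits weak peaks most, since regions of 4 to 9 tags have wide intervals.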
